A study of Homo sapiens with 10 samples.

Results

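Keratins are the intermediate filament proteins of epithelial cells, and a filament is built from pairs of 1 type I and 1 type II keratin. In epidermis, basal keratinocytes make KRT5 (type II) and KRT14 (type I), cells that leave the basal layer switch to KRT1 (type II) and KRT10 (type I), and wounded or inflamed epidermis turns on KRT6A and KRT6B (type II) with KRT16 and KRT17 (type I). KRT8 (type II) and KRT18 (type I) are the pair of simple, single-layered epithelia and are also made by many keratinocytes in culture. These 10 genes were taken by name from a table of 22003 features. All 10 were present, and all 10 passed the filter on low counts. They are described here in HaCaT cells, an immortalised human skin keratinocyte line that the labels list under mucosa with a wild-type genotype.

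LBP is a preparation of polysaccharide and glycoprotein from Lycium barbarum, the goji plant. Cultures were kept with it or with vehicle for 24 h, and some were then given 12 Gy of radiation. The groups were irradiated LBP (LBP, then 12 Gy; n = 3), irradiated vehicle (vehicle, then 12 Gy; n = 3), LBP without radiation (n = 2) and vehicle without radiation (n = 2). RNA of irradiated cells was taken 3 h after exposure. Harvest time of non-irradiated cells is not recorded in the sample details used here. A difference in culture time therefore cannot be told apart from radiation. All groups are the same cell line. The labels number the libraries as repeats and do not say that they came from separate cultures, so p-values reflect the spread among these libraries alone, and that spread may be technical. Libraries held 31830506 to 62986831 counts, and the 10 keratins took 1.41% to 1.72% of them. By group this share was 1.52 ± 0.07% in irradiated LBP, 1.52 ± 0.10% in irradiated vehicle, 1.67 ± 0.07% in LBP and 1.53 ± 0.06% in vehicle libraries (SD). In RNA from whole cultures, fewer cells of a kind and less RNA per cell cannot be told apart.

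The sequences of the activation keratins are shown because their near-identity limits how reads can be divided between them. A stretch of 60 coding bases is given for KRT6A, KRT6B and the third copy KRT6C, from exon 2, with the 9 positions that vary among the 3 genes in capitals. The bases are from GENCODE v29 transcripts on GRCh38, written in the direction of transcription.
KRT6A (chr12:52491555-52491614, minus strand): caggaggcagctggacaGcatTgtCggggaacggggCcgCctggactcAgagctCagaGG
KRT6B (chr12:52450439-52450498, minus strand): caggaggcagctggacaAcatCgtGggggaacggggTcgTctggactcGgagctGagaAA
KRT6C (chr12:52472099-52472158, minus strand): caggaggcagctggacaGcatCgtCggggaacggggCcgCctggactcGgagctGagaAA
This window was chosen for its differences. Over all 1692 aligned coding bases, KRT6A and KRT6B differed at 42 and were 97.5% identical, and the longest identical run was 269 bases. Of the windows of 100 bases in KRT6A, 13.7% occurred unchanged in KRT6B. KRT6A and KRT6C were 97.9% identical, and KRT6B and KRT6C 98.5%. Reads of KRT6B, the scarcest of the 3, are therefore uncertain wherever KRT6A reads could be placed on it.

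The type I activation keratins KRT16 and KRT17 are shown with the basal KRT14, their close relative, over 60 bases of exon 1. Capitals mark the 25 positions that vary among these 3 genes.
KRT16 (chr17:41612165-41612224, minus strand): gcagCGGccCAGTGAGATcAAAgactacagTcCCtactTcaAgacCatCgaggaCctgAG
KRT17 (chr17:41624085-41624144, minus strand): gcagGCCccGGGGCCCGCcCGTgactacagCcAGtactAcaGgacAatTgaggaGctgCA
KRT14 (chr17:41586317-41586376, minus strand): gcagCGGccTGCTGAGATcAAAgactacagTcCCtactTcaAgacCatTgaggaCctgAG
This window was also chosen for its differences, here those between KRT16 and KRT17. In it KRT16 differed from KRT17 at 24 positions and from KRT14 at 4. Over the whole coding sequence KRT16 was 88.6% identical to KRT14, with 4.48% of 100-base windows of KRT14 also in KRT16, and 79.3% identical to KRT17, with 0 windows shared. KRT14 was 127 times as abundant per length as KRT16. Whether reads were misplaced between them was not tested.

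All 10 genes are annotated as protein coding in GENCODE v29 (GRCh38). The type II genes lie on chromosome 12 on the minus strand. They are KRT6B at 52446651 to 52452126, KRT6A at 52487174 to 52493257, KRT5 at 52514575 to 52520687, KRT1 at 52674736 to 52680407 and KRT8 at 52897187 to 52949954. KRT18 is a type I gene but sits beside KRT8, at 52948871 to 52952901 on the plus strand. The remaining type I genes lie on chromosome 17 on the minus strand, with KRT10 at 40818117 to 40822595, KRT14 at 41582279 to 41586921, KRT16 at 41609778 to 41615899 and KRT17 at 41619441 to 41624842. As whole gene spans, KRT8 and KRT18 share bases 52948871 to 52949954 on opposite strands, and KRT10 overlaps TMEM99 on the other strand. The KRT8 transcript with the longest coding sequence starts at 52926469, outside the shared stretch. The strand setting of the counting is not given in the sources used here, so reads of such overlaps cannot be told apart.

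Levels between keratins are compared as FPKM, which are fragments scaled to gene length and library size. KRT14 averaged 1807 ± 173 FPKM over the 10 libraries (SD) and ranked 14 of 22003 features. KRT8 averaged 1562 ± 176 FPKM, KRT5 1234 ± 79.8, KRT17 1167 ± 200.3, KRT18 923 ± 120.4 and KRT6A 749 ± 68.5. These 6 keratins were among the 100 most abundant features, and along this order each gene's range over the libraries overlapped that of its neighbour. The other 4 keratins were far lower.

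KRT10 averaged 24.0 ± 2.56 FPKM, KRT16 14.2 ± 4.50 and KRT6B 6.89 ± 1.25, again with overlapping ranges between neighbours in this order. KRT1, the type II partner of KRT10, averaged 0.0765 ± 0.0181 FPKM and had 7 to 16 counts in a library. The basal pair and the simple epithelial pair were thus both high, the suprabasal pair was low, and the activation keratins split into 2 abundant genes (KRT6A, KRT17) and 2 scarce ones (KRT16, KRT6B). The markers KRT5, KRT14 and TP63, a transcription factor that maintains stratified epithelia, were all present, with TP63 at 203 to 269 CPM by group mean.

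**Figure D1:**
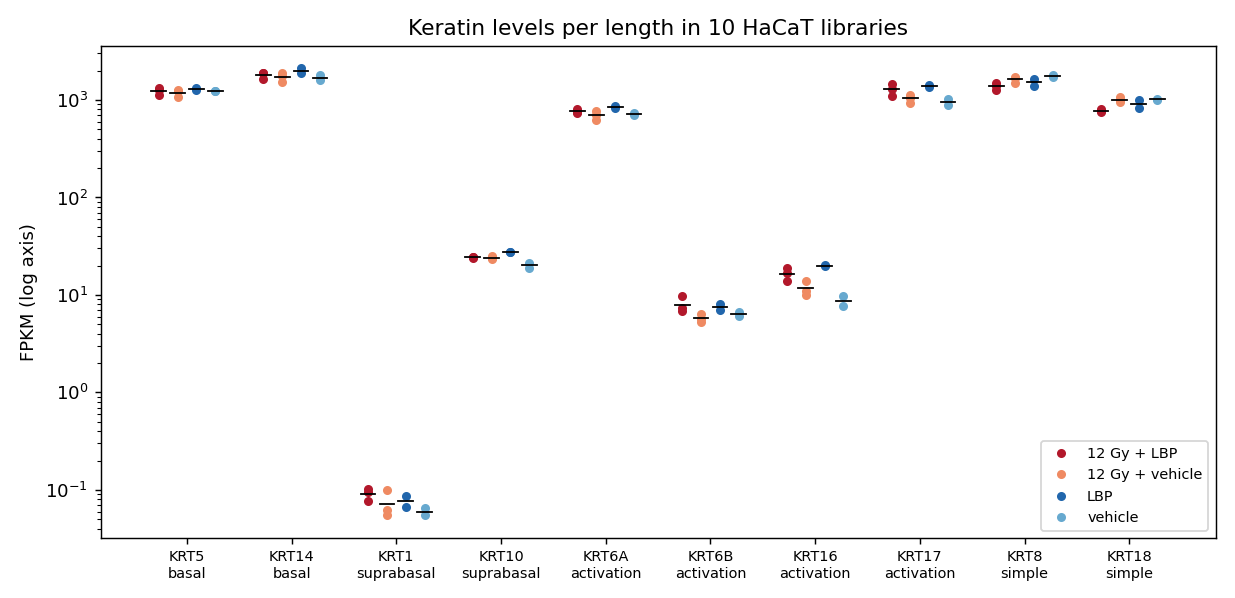
FPKM of each keratin on a log axis in the 10 libraries, 1 point per library and a bar at the group mean, with groups left to right as irradiated LBP, irradiated vehicle, LBP and vehicle. The 6 abundant keratins lie between 622 and 2115 FPKM, KRT10, KRT16 and KRT6B between 5.33 and 27.3, and KRT1 at or below 0.101.

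Every keratin call was between LBP and vehicle cells. Averaged over both radiation states, 4 of the 10 keratins rose with LBP and 0 fell, where 3.99% of the 14799 tested genes rose and 2.93% fell. The 4 were the activation keratins KRT16, KRT17 and KRT6B and the suprabasal KRT10. The simple epithelial pair KRT8 and KRT18 had negative values and did not pass. The test was edgeR's quasi-likelihood test, with p-values adjusted over all tested genes by the Benjamini-Hochberg method and calls at an adjusted p under 0.05. Differences are log2 fold changes ± standard error (SE). CPM are counts scaled to library size by TMM, the trimmed mean of M values.

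KRT16, which marks activated and hyperproliferative epidermis, had 31.9, 25.0 and 35.7 CPM in irradiated LBP libraries, against 19.6, 18.3 and 24.9 CPM in irradiated vehicle libraries. It had 37.9 and 38.7 CPM in LBP libraries, against 13.8 and 17.8 CPM in vehicle libraries. Every LBP library was above every vehicle library of its radiation state, although in irradiated cells the lowest LBP library was only just above the highest vehicle library. KRT16 rose 2.41-fold without radiation (log2 1.27 ± 0.18, adjusted p = 0.00571). In irradiated cells its value was 0.56 ± 0.15 (adjusted p = 0.0518). The average over both states was 0.92 ± 0.12 (adjusted p = 0.000754), and this call was kept in 19 of 19 alternative settings. The call without radiation was lost without vehicle replicate 1 (1.09, adjusted p = 0.113) and without LBP replicate 2 (1.26, adjusted p = 0.0526).

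KRT17, a keratin of hair follicles and of wounded epidermis, had 2573, 1854 and 2279 CPM in irradiated LBP libraries, against 1766, 1643 and 1951 CPM in irradiated vehicle libraries. It had 2534 and 2456 CPM in LBP libraries, against 1543 and 1777 CPM in vehicle libraries. The irradiated groups overlapped through LBP replicate 2, and the groups without radiation did not overlap. KRT17 rose on average by 0.46 ± 0.09 (adjusted p = 0.0111). Within each state it did not pass, at 0.32 ± 0.11 in irradiated cells (adjusted p = 0.115) and 0.59 ± 0.14 without radiation (adjusted p = 0.0794). The average lost its call without LBP replicate 1 (0.44, adjusted p = 0.0504) and without vehicle replicate 1 (0.40, adjusted p = 0.0769).

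KRT6A, the main type II activation keratin here, averaged 2019 ± 43.5 CPM in irradiated LBP and 1821 ± 179.8 CPM in irradiated vehicle libraries (SD, n = 3 each). Without radiation it averaged 2296 ± 84.3 CPM in LBP and 1888 ± 86.3 CPM in vehicle libraries (SD, n = 2 each). Its average value was 0.22 ± 0.06 (adjusted p = 0.0513), which did not pass. Summing KRT6A, KRT6B and KRT6C, an alternative chosen after seeing the data, gave 0.22 ± 0.06 (adjusted p = 0.0512).

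KRT6B had 18.4, 18.6 and 25.7 CPM in irradiated LBP libraries, against 14.7, 14.2 and 16.7 CPM in irradiated vehicle libraries. It had 19.0 and 22.1 CPM in LBP libraries, against 15.9 and 17.4 CPM in vehicle libraries. The groups did not overlap in either state, and irradiated LBP replicate 3 stood highest. KRT6B rose on average by 0.38 ± 0.10 (adjusted p = 0.0452), just inside the threshold, and 9 of 19 alternative settings kept this call. Leaving out a library ended the call for irradiated vehicle replicates 1 and 2 and for each LBP and vehicle library without radiation, with adjusted p from 0.0798 to 0.178. Its values within a state were 0.46 ± 0.13 in irradiated cells (adjusted p = 0.0671) and 0.30 ± 0.16 without radiation (adjusted p = 0.432).

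KRT10, the type I keratin of early differentiation, had 62.0, 58.4 and 59.4 CPM in irradiated LBP libraries, against 60.7, 57.5 and 58.6 CPM in irradiated vehicle libraries. It had 69.4 and 69.7 CPM in LBP libraries, against 45.9 and 52.2 CPM in vehicle libraries. The irradiated groups interleaved, while without radiation both LBP libraries were above both vehicle libraries. KRT10 rose with LBP without radiation by 0.50 ± 0.08 (adjusted p = 0.013), and its value in irradiated cells was 0.03 ± 0.07 (95% interval -0.12 to 0.17, adjusted p = 0.865). The average was 0.26 ± 0.05 (adjusted p = 0.0132). The call without radiation was lost without LBP replicate 1, LBP replicate 2 or vehicle replicate 1, with adjusted p of 0.0978, 0.0928 and 0.203, and the average lost its call without LBP replicate 1 (0.0559) or vehicle replicate 1 (0.0867).

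KRT1 had 11, 9 and 13 counts in irradiated LBP libraries, against 7, 9 and 16 counts in irradiated vehicle libraries. It had 8 and 11 counts in LBP libraries, against 7 and 10 counts in vehicle libraries. With so few counts its average value of 0.34 ± 0.33 (95% interval -0.36 to 1.05, adjusted p = 0.57) leaves room for a change in either direction, and no difference was detectable at this depth.

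The basal keratins passed in none of the 7 comparisons in edgeR. KRT5 averaged 3155 ± 239 CPM in irradiated LBP and 3010.0 ± 218 CPM in irradiated vehicle libraries (SD, n = 3 each), a value of 0.07 ± 0.08. KRT14 averaged 3402 ± 231 CPM in irradiated LBP and 3231 ± 323 CPM in irradiated vehicle libraries, a value of 0.07 ± 0.09. Without radiation KRT14 had 3659 and 4111 CPM in LBP libraries, against 2976 and 3346 CPM in vehicle libraries, and KRT5 had 3343 and 3526 CPM, against 3113 and 3099.8 CPM. Neither pair of groups without radiation overlapped, but neither gene passed (KRT14 0.30 ± 0.11, adjusted p = 0.27; KRT5 0.14 ± 0.09, adjusted p = 0.53). On average over both states the 95% intervals were -0.02 to 0.24 for KRT5 and 0.03 to 0.34 for KRT14, with adjusted p of 0.323 and 0.139.

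KRT18, the type I keratin of simple epithelia, had 1239, 1218 and 1333 CPM in irradiated LBP libraries, against 1575, 1559 and 1721 CPM in irradiated vehicle libraries. Every irradiated LBP library was below every irradiated vehicle library. KRT18 fell by 0.36 ± 0.08 on the log2 scale (adjusted p = 0.035), a drop of 21.9%. It was the single keratin called in irradiated cells, where 1.57% of tested genes fell and 2.79% rose. Without radiation KRT18 had 1370.5 and 1701 CPM in LBP libraries, against 1624 and 1663 CPM in vehicle libraries. These groups overlapped, with the LBP libraries the lowest and the highest of the 4, and the value was -0.10 ± 0.10 (adjusted p = 0.713). The call in irradiated cells was kept in 13 of 20 alternative settings and lost without any 1 of irradiated LBP replicates 1 and 2, irradiated vehicle replicates 1, 2 and 3 and vehicle replicate 2, with adjusted p from 0.0506 to 0.116.

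KRT8, the partner of KRT18, had 2781, 2872 and 3200.0 CPM in irradiated LBP libraries, against 3449, 3216 and 3617 CPM in irradiated vehicle libraries. It had 3128 and 3610.0 CPM in LBP libraries, against 3682 and 3825 CPM in vehicle libraries. The LBP libraries were lower in both states with no overlap, although the gap in irradiated cells was small. KRT8 did not pass, at -0.22 ± 0.08 in irradiated cells (adjusted p = 0.143), -0.16 ± 0.10 without radiation (adjusted p = 0.521) and -0.19 ± 0.06 on average (adjusted p = 0.102). The average for KRT18 was -0.23 ± 0.07 (adjusted p = 0.0585).

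**Figure D2:**
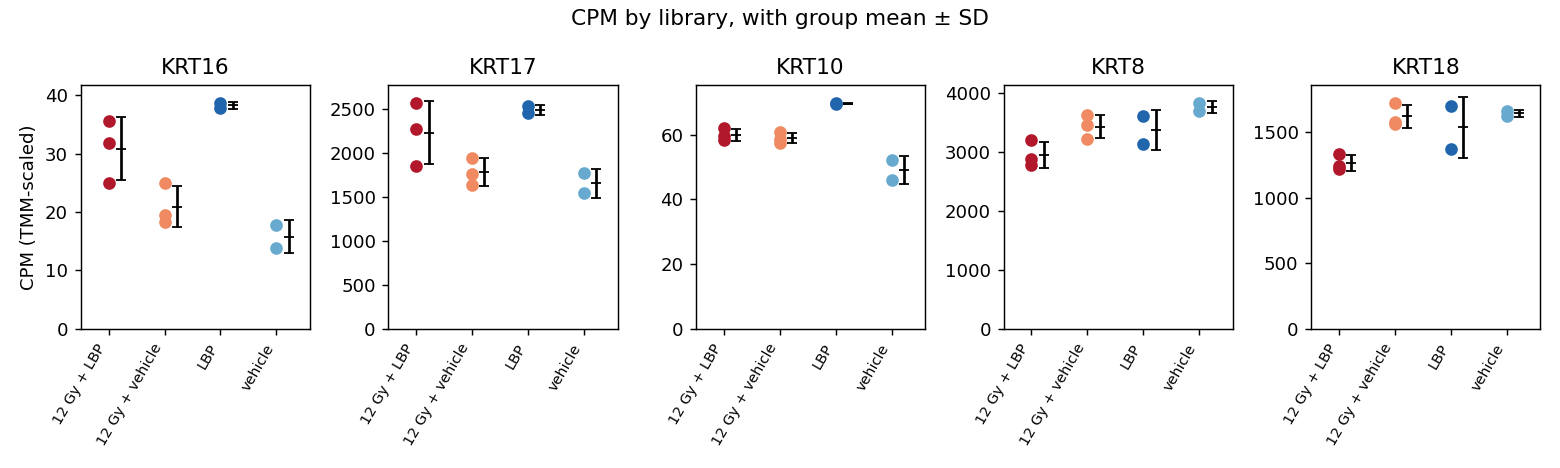
CPM of KRT16, KRT17, KRT10, KRT8 and KRT18 from 0, 1 point per library, with the group mean ± SD beside it, for irradiated LBP, irradiated vehicle, LBP and vehicle from left to right. KRT16 is highest in the LBP libraries without radiation (37.9 and 38.7 CPM), and KRT18 is lowest in the irradiated LBP libraries (1218 to 1333 CPM).

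In irradiated cells 4 of 10 keratins had groups that did not overlap (KRT6B, KRT16, KRT8 and KRT18), where 27.5% of tested genes did so. Without radiation 9 of 10 did so, all but KRT18, where 45.5% of tested genes did so with 2 libraries a group. There 2 of 10 keratins rose and 0 fell, against 0.541% of tested genes that rose and 0.264% that fell. The median keratin value was 0.11 in irradiated cells and 0.30 without radiation, where the median over all tested genes was 0.01 in both.

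**Figure D3:**
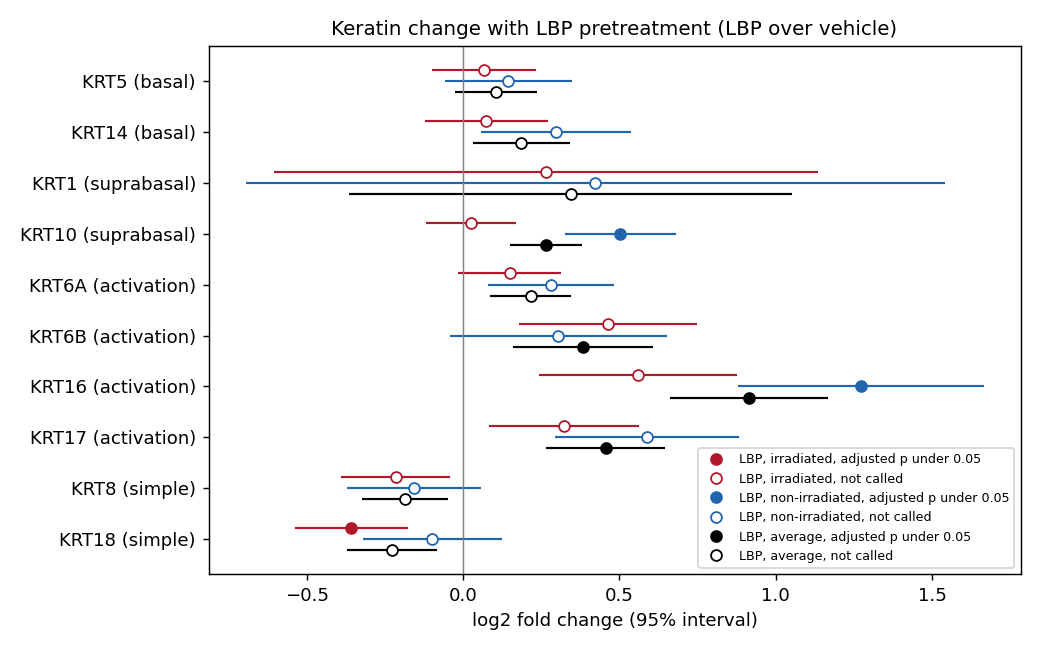
Log2 fold change of each keratin with LBP over vehicle, with its 95% interval, in irradiated cells, in cells without radiation and averaged over both, where filled points have an adjusted p under 0.05. Filled points are KRT18 in irradiated cells, KRT10 and KRT16 without radiation, and KRT10, KRT6B, KRT16 and KRT17 on average.

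The shares of the 4 classes in the summed FPKM of the 10 keratins give the same data as a composition, without a test. They are parts of a fixed total, so a higher share of a class lowers the shares of the others. Activation keratins made up 28.4 ± 2.69% in irradiated LBP and 23.9 ± 0.510% in irradiated vehicle libraries (SD, n = 3 each), and 28.1 ± 1.85% in LBP and 22.8 ± 0.724% in vehicle libraries (SD, n = 2 each). Simple epithelial keratins made up 29.6 ± 0.775% in irradiated LBP and 35.9 ± 0.748% in irradiated vehicle libraries, and 30.3 ± 1.97% in LBP and 37.6 ± 0.771% in vehicle libraries. In both classes the 5 LBP libraries and the 5 vehicle libraries did not overlap. By mean FPKM the activation share is nearly all KRT17 (1167) and KRT6A (749), and KRT16 (14.2) and KRT6B (6.89) add little. Neither KRT17 nor KRT6A was called within a radiation state. Without radiation neither KRT8 (-0.16 ± 0.10) nor KRT18 (-0.10 ± 0.10) was called.

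Basal keratins held 41.7 ± 2.00% in irradiated LBP and 39.9 ± 0.680% in irradiated vehicle libraries, and 41.2 ± 0.107% in LBP and 39.3 ± 0.0347% in vehicle libraries. Suprabasal keratins stayed under 1% of the sum in every library. As ratios of FPKM, KRT18 to KRT14 was 0.430 ± 0.0223 in irradiated LBP and 0.581 ± 0.0346 in irradiated vehicle libraries, and 0.456 ± 0.0320 in LBP and 0.603 ± 0.0394 in vehicle libraries. KRT8 to KRT5 was 1.12 ± 0.0115 in irradiated LBP and 1.37 ± 0.0376 in irradiated vehicle libraries, and 1.16 ± 0.0975 in LBP and 1.44 ± 0.0480 in vehicle libraries. For both ratios every LBP library was below every vehicle library. Without radiation the KRT18 to KRT14 ratio also holds the KRT14 value of 0.30 ± 0.11, beside -0.10 ± 0.10 for KRT18. KRT16 to KRT14 was higher in every LBP library, narrowly in irradiated cells (lowest LBP 0.00743, highest vehicle 0.00737). LBP and vehicle libraries overlapped for KRT6A to KRT5, KRT6B to KRT6A, KRT17 to KRT14, KRT1 to KRT5 and KRT10 to KRT14.

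**Figure D4:**
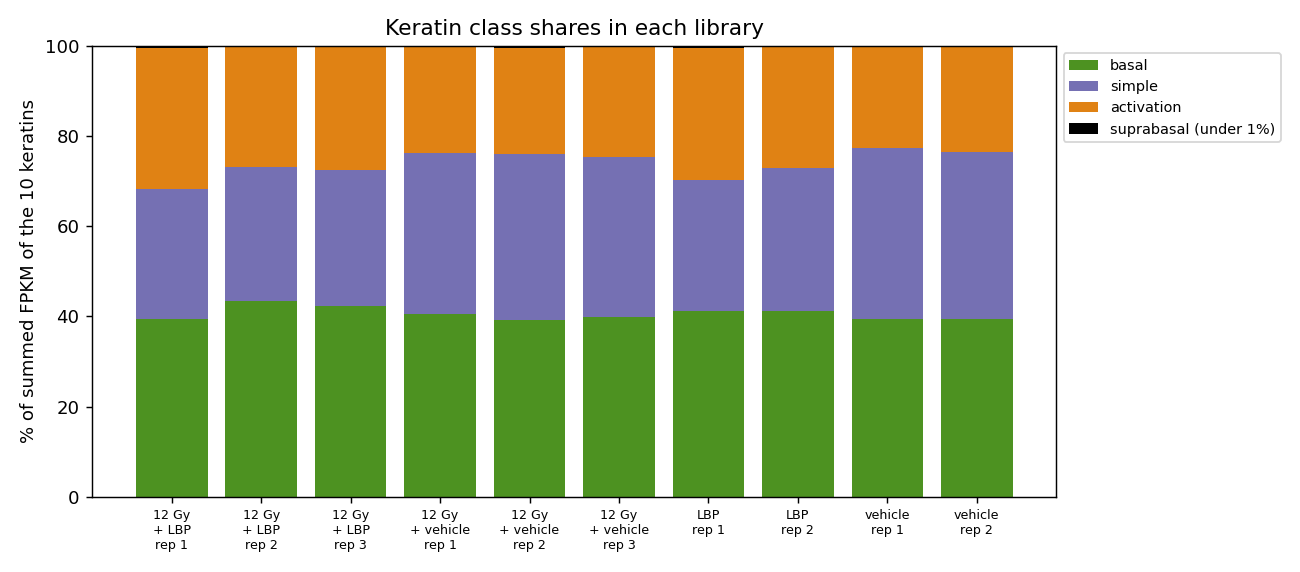
Share of each keratin class in the summed FPKM of the 10 keratins, 1 stacked bar per library from 0 to 100%, with the LBP libraries left of the vehicle libraries of the same radiation state. The activation share runs from 26.5% to 31.5% in the 5 LBP libraries and from 22.3% to 24.4% in the 5 vehicle libraries.

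No keratin passed the test for radiation at 3 h. In vehicle cells, irradiated against non-irradiated, 0 of 10 keratins were called by edgeR, where 0.439% of tested genes were, and 0 by DESeq2 or limma, while 2 had an unadjusted p under 0.05, as did 6.91% of tested genes. KRT10 and KRT16 were those 2, at 0.26 ± 0.07 (adjusted p = 0.379) and 0.40 ± 0.17 (adjusted p = 0.69). Both genes were higher in all 3 irradiated vehicle libraries than in both vehicle libraries, and KRT8 was lower in all 3. These were the 3 of 10 keratins whose groups did not overlap, where 27.6% of tested genes did so.

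After LBP, irradiated against non-irradiated, again 0 of 10 were called by edgeR, where 0.142% of tested genes were, and 0 by DESeq2 or limma, while 3 had an unadjusted p under 0.05 (KRT18, KRT10 and KRT6A), as did 13.5% of tested genes. KRT18 had a value of -0.28 ± 0.09 (adjusted p = 0.279), KRT10 of -0.22 ± 0.07 (adjusted p = 0.28) and KRT16 of -0.31 ± 0.16 (adjusted p = 0.417). KRT10, KRT14, KRT6A, KRT16 and KRT18 had irradiated libraries all below the non-irradiated ones, 5 of 10, where 28.0% of tested genes did not overlap. Averaged over both pretreatments 0 of 10 were called, where 0.561% of tested genes were, also 0 by DESeq2 or limma, and KRT8 (-0.16 ± 0.06) and KRT18 (-0.15 ± 0.07) had an unadjusted p under 0.05, as did 11.5% of tested genes. Leaving KRT1 aside, the 95% intervals of this average lay between -0.30 and 0.30 for all 9 other keratins.

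**Figure D5:**
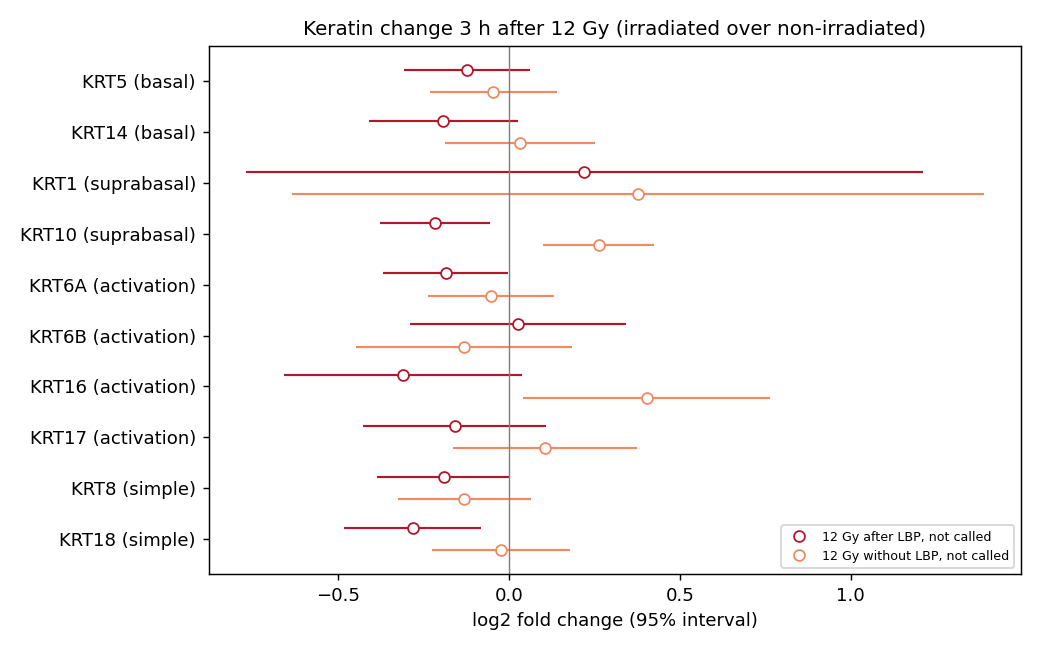
Log2 fold change of each keratin with 12 Gy over no radiation, with its 95% interval, after LBP and without LBP. Open points mark values that were not called, which is all of them, and KRT10 and KRT16 have negative values after LBP and positive values without LBP.

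Whether the LBP effect differed with radiation was tested by the interaction, the effect of LBP in irradiated cells less its effect without radiation. By edgeR 0 of 10 keratins were called, where 0.0135% of tested genes were, and by DESeq2 or limma 0. KRT10 (-0.48 ± 0.11) and KRT16 (-0.71 ± 0.23) had unadjusted p of 0.000668 and 0.00924, and both had an adjusted p of 0.573. An unadjusted p under 0.05 was found for 8.2% of tested genes. For KRT18 the interaction was -0.26 ± 0.13 (adjusted p = 0.619), so its call in irradiated cells alone was not shown to differ from its value without radiation.

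Correlations among the keratins over the 10 libraries are given as Pearson's r of log2 CPM. The median over 45 pairs was 0.52, and 0.53 after the group means were removed. Over the libraries r was 0.95 for KRT16 and KRT17, 0.93 for KRT8 and KRT18, and 0.87 for KRT5 and KRT14. After the group means were removed these were 0.83, 0.89 and 0.81. The suprabasal partners KRT1 and KRT10 had an r of 0.36 over the libraries and -0.40 within groups. KRT1 had 7 to 16 counts in a library, so its values of r are uncertain. Pairs that are not partners also had high values within groups, with 0.91 for KRT6B and KRT8 and 0.89 for KRT14 and KRT8. The simple epithelial keratins had an r of -0.44 (KRT8) and -0.42 (KRT18) with KRT16 over the libraries, but 0.59 and 0.52 within groups. Of the pairs, 12 had a negative r over the libraries and 1, KRT1 with KRT10, within groups. These are descriptions over 10 libraries that share group differences, library size and scaling. Removing the group means leaves 6 degrees of freedom, and in groups of 2 libraries the deviations are mirror images. High within-group values therefore arise readily.

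The genes whose pattern was most like each keratin over the 10 libraries, by Pearson's r among 10150 candidates, were as follows. For KRT16 they were PYCR1 (r = 0.96), an enzyme of proline synthesis, ATXN7L2 and TOLLIP, and for KRT17 SERTAD1 (0.95), KLHL21 and TMEM184A. For KRT18 they were GPX1 (0.97), a glutathione peroxidase, ANXA2 and TAGLN2, and for KRT8 they included SCFD2 (0.96) and GNB1L. For KRT10 they were PDLIM1 (0.93), CTU1 and LAMTOR3, for KRT6A NFS1 (0.97), MECR and MPI, and for KRT6B BTN2A1 (0.96), ERGIC3 and GPI. For KRT5 they were AKR1A1 (0.97), ECH1 and EPS8L2, for KRT14 LCMT1 (0.95), CYBA and ZNF282, and for KRT1 FBXO27 (0.97), PFKFB3 and CDCA5. With 10 libraries and so many candidates, high values of r arise readily, and those of KRT1 rest on 7 to 16 counts in a library.

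Of 45 other type I and type II keratin genes in the table, 15 were tested and 12 had 0 counts in every library. KRT7, a type II keratin of simple and glandular epithelia, averaged 836 FPKM and KRT19, a type I keratin of simple epithelia and some basal cells, 758 FPKM. KRT15, a basal keratin, averaged 146 FPKM, KRT80 40.3, KRT13, a keratin of mucosal epithelia, 40.1, KRT6C 26.0, KRT81 17.5, KRT9 3.79 and KRT4, the type II partner of KRT13, 1.27. KRT15 rose with LBP on average by 0.34 ± 0.07 (adjusted p = 0.0122). Its group means were 326 CPM in irradiated LBP and 267 CPM in irradiated vehicle libraries, and 370 CPM in LBP and 281 CPM in vehicle libraries. It was the only 1 of the 15 called by edgeR in any of the 7 comparisons, where 3.99% of tested genes rose in this one.

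Among 20 tested anchors of keratins in desmosomes and hemidesmosomes, 4 were higher with LBP in irradiated cells and 0 were lower, where 2.79% of tested genes rose and 1.57% fell. DSG3, a desmosomal cadherin of basal layers, changed by 0.43 ± 0.08 (adjusted p = 0.0132), PLEC, the linker plectin, by 0.44 ± 0.09 (0.0195), PPL, the cornified envelope linker periplakin, by 0.34 ± 0.07 (0.0253) and EPPK1, the keratin-binding epiplakin, by 0.67 ± 0.14 (0.0267). The median over the 20 was 0.13, where that of all tested genes was 0.01. Without radiation 0 of the 20 were called with LBP, where 0.541% of tested genes rose and 0.264% fell, and their median was 0.004. On average 4 of the 20 rose and 1 fell, where 3.99% of tested genes rose and 2.93% fell. The gene that fell was the desmosomal plaque gene PKP2, at -0.22 ± 0.04 (adjusted p = 0.0132).

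Of 26 tested transcription factors known to act on keratin genes, 2 were higher in irradiated cells with LBP and 0 were lower, where 2.79% of tested genes rose and 1.57% fell. The median over the 26 was 0.24. KLF5 changed by 0.60 ± 0.10 (adjusted p = 0.00719) and TP63 by 0.41 ± 0.08 (adjusted p = 0.0226). Without radiation 0 of the 26 were called with LBP, where 0.541% of tested genes rose and 0.264% fell, and their median was 0.09. On average 3 of the 26 rose, where 3.99% of tested genes did, and the third was FOSL1, an AP-1 subunit, at 0.69 ± 0.11 (adjusted p = 0.00465). KLF4, a factor of differentiating layers, was the 1 of 26 called with radiation on average, where 0.561% of tested genes were, at 0.57 ± 0.11 (adjusted p = 0.0313).

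In irradiated cells 4 of 14 tested differentiation genes were higher with LBP and 0 were lower, where 2.79% of tested genes rose and 1.57% fell. The median over the 14 was 0.32. FLG, encoding filaggrin, which bundles keratin filaments, averaged 218 CPM in irradiated LBP and 104.5 CPM in irradiated vehicle libraries, a change of 1.06 ± 0.17 (adjusted p = 0.00719). TGM1, the transglutaminase that crosslinks the cornified envelope, changed by 0.87 ± 0.18 (0.0226), SERPINB3, a protease inhibitor, by 0.91 ± 0.19 (0.0253) and SPRR2A, an envelope precursor, by 0.76 ± 0.19 (0.0486). KRT10 and KRT1, the keratins of early differentiation, had values of 0.03 and 0.27 in that comparison and did not pass. Without radiation 0 of the 14 were called with LBP, where 0.541% of tested genes rose and 0.264% fell, and their median was 0.15. On average 4 of the 14 rose and 0 fell, where 3.99% of tested genes rose and 2.93% fell. The interaction was called for 0 of the 14, 0 of the 20 anchors and 0 of the 26 transcription factors. Its medians were 0.009, 0.18 and 0.11, and 0.0135% of tested genes were called. The LBP effect on these lists was thus not shown to differ with radiation.

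Of the 4 keratins that rose on average, KRT10 was the one with a start region in the RefSeq promoter table (GRCh38.p14), which held 3 of the 10 keratins (KRT5, KRT8 and KRT10). Its 250 bases before the start are shown for that reason, 5′ to 3′, with the match to TATAAA in capitals.
KRT10 (chr17:40822615-40822864, minus strand): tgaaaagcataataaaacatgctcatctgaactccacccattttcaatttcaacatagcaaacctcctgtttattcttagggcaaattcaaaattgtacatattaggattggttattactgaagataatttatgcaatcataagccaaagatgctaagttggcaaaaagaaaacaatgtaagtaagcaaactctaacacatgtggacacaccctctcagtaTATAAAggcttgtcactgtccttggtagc
The match begins 29 bases before the start in that table, which lies 19 bases upstream of the GENCODE start of the gene, and 10.7% of 35116 promoters hold this motif on either strand in a window of that length. The letters of AP-1 (TGANTCA), of the antioxidant response element core (TGACNNNGC), of AP-2 (GCCNNNGGC), of the SP1 box (GGGCGG) and of the xenobiotic response element core (GCGTG) were not in this window on either strand. They occur in 6.57%, 10.9%, 19.8%, 42.6% and 32.2% of promoters.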

How the data were processed

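Total RNA was extracted with Trizol, and PCR-amplified cDNA was circularised, per the labels' protocols. The submitters' processing notes name HISAT2 and GRCh38 without versions. How reads were counted, with which annotation and strand setting, is not given in the sources used here. For 10 libraries the authors deposited whole-number counts per gene and FPKM per gene. Same-group libraries differed beyond counting noise (chi-square per degree of freedom 17.9 to 28.3 by group).

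The counts were analysed in R 4.3.3 with edgeR 4.0.16. After filterByExpr (minimum count 10) and TMM scaling, a quasi-likelihood model with 1 mean per group was fitted to 14799 features in all 10 libraries (6 residual degrees of freedom, prior 6.06), and p-values were adjusted over all of them by the Benjamini-Hochberg method. The script was tested on simulated data. FPKM were used as deposited for levels, shares and ratios. Alternatives used DESeq2 1.42.0, limma 3.58.1 on log2(FPKM + 1) and log2(FPKM + 0.1), other scalings, no filter, a replicate block and each library left out.

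Members, lists (other keratins, anchors, transcription factors, alarmins, differentiation genes, other filaments, and markers of fibroblasts, melanocytes, endothelium and leukocytes) and tests were chosen with earlier results of these data known. All 10 keratins are described, with up to 4 called members of smallest p per list and other keratins of at least 1 FPKM. Coding sequences were aligned in place of proteins, in pairs with Biopython 1.88 for identity and with MAFFT 7.526 for the printed windows. The 132 pseudogenes in GENCODE v29 that are named after the 10 keratins were not analysed here. Depth was 31830506 to 62986831 counts. Values for 1 gene that the likeness rule names are not reported here.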

Additional observations from a re-analysis of the deposited data

Results flagged for a closer look

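KRT10 and KRT16 are listed because their libraries lay in opposite orders with and without LBP, with no overlap in either case, although neither gene passed for radiation (adjusted p after LBP 0.28 for KRT10 and 0.417 for KRT16, and without LBP 0.379 and 0.69). After LBP every irradiated library was lower than every non-irradiated one, and without LBP every irradiated library was higher. The difference between those radiation effects was -0.48 for KRT10 and -0.71 for KRT16 on the log2 scale. Neither passed adjustment over all tested genes in edgeR (adjusted p = 0.573 for both), and the vehicle and LBP groups without radiation hold 2 libraries each. Irradiated and non-irradiated groups did not overlap for 28.0% of tested genes after LBP and for 27.6% without LBP. How many of all tested genes did so in opposite directions was not counted. Groups of 2 or 3 libraries were too small to look for outlying libraries.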

How the results depend on the processing

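Of 21 alternative settings, the sum of the KRT6 genes gave values for KRT6A alone, which was not called. In the others, 0 of 136 alternative values of the 7 called keratin differences changed direction. Of these 136, 107 kept an adjusted p under 0.05. The largest shift of the median of all genes under any setting was 0.061 on the log2 scale. The number of keratins called with LBP in irradiated cells, 1 in the main test, was 4 with DESeq2, 3 with no filter, 3 with the replicate block and 0 with limma on log2(FPKM + 1) without a filter, and 0 to 2 with a library left out. Without radiation it was 2, but 0 with limma without a filter, and 0 to 3 with a library left out. On average over both states it was 4, but 7 with DESeq2 and 2 with limma without a filter, and 1 to 7 with a library left out. It was 0 throughout for radiation and the interaction. Whole-table counts with LBP were 645 in irradiated cells (169 to 1228 in other settings, 176 to 722 with a library left out) and 119 without radiation (45 to 374, and 38 to 175).

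The labels give repeat numbers and do not say whether same-numbered libraries share a run. Of 13 same-numbered pairs 2 had an r of deviations over 0.1 (-0.16 to 0.11). In groups of 2 libraries the deviations are mirror images of each other, so this check cannot exclude a shared run. The replicate block ended 0 calls and added 4. It turned KRT14 with radiation without LBP to -0.025, KRT6B with radiation after LBP to -0.10 and KRT16 with radiation on average to -0.085. limma without a filter turned the KRT1 interaction to 0.0021. Leaving out 1 library changed the sign of further uncalled values near 0, whose lowest and highest values over left-out libraries follow. In the LBP effect in irradiated cells they were KRT14 (-0.00017 to 0.15) and KRT10 (-0.0017 to 0.046). In the LBP effect without radiation they were KRT18 (-0.26 to 0.0398). In the radiation effect without LBP they were KRT5 (-0.077 to 0.017), KRT14 (-0.053 to 0.13), KRT6A (-0.13 to 0.014) and KRT18 (-0.069 to 0.0075). In the radiation effect after LBP they were KRT6B (-0.14 to 0.14). In the interaction they were KRT1 (-0.32 to 0.13), KRT6B (-0.014 to 0.27) and KRT8 (-0.16 to 0.0398). In the average radiation effect they were KRT10 (-0.021 to 0.078), KRT6B (-0.14 to 0.0053), KRT16 (-0.036 to 0.15) and KRT17 (-0.079 to 0.033).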

Other observations

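Among 11 tested filament genes that are not keratins, VIM, the vimentin of mesenchymal cells and of many cultured epithelial cells, fell with LBP in both radiation states. It averaged 8.61 CPM in irradiated LBP and 17.2 CPM in irradiated vehicle libraries, a change of -0.999 ± 0.119 (adjusted p = 0.000904). Without radiation VIM averaged 9.60 CPM in LBP and 18.6 CPM in vehicle libraries, a change of -0.95 ± 0.14 (adjusted p = 0.00879). VIM was the only 1 of the 11 called in either state, where 1.57% of tested genes fell in irradiated cells and 0.264% without radiation. On average LMNB1, the B-type lamin of the nuclear envelope, also fell, by 0.27 ± 0.06 on the log2 scale (adjusted p = 0.024). In that comparison 2 of the 11 fell and 0 rose, where 2.93% of tested genes fell and 3.99% rose.

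Of 12 tested alarmins and cytokines of activated keratinocytes, 2 rose with LBP on average and 0 fell, where 3.99% of tested genes rose and 2.93% fell, and the median over the 12 was -0.04. They were IL1RN, the interleukin 1 receptor antagonist, at 0.19 ± 0.05 (adjusted p = 0.0439) and SERPINB4, a protease inhibitor, at 0.70 ± 0.19 (adjusted p = 0.0496). Markers of other cell types were low in all libraries, with summed FPKM of 1.02 to 1.50 for 8 fibroblast genes, 1.43 to 1.95 for 7 melanocyte genes, 0.317 to 0.884 for 6 endothelial genes and 6.43 to 10.1 for 8 leukocyte genes. The melanocyte sum was 1.45 to 1.51 in irradiated LBP and 1.69 to 1.95 in irradiated vehicle libraries. MITF was called lower there (-0.46 ± 0.11, adjusted p = 0.041), where 1.57% of tested genes fell. It was the single called marker in that comparison, with 2 genes tested in each of these lists. Its part in the keratin results was not tested.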
